A study of Gallus gallus with 9 samples.

Results

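Of the 7528 long noncoding RNAs (lncRNAs) quantified in granulosa cells of the largest preovulatory follicle (F1) of laying hens, 236 (3.13%) had a lower mean level at ZT12 than at both ZT0 and ZT20. They were chosen by 3 conditions on the stage means of the deposited log2(TPM + 2) values, where TPM is the level of a transcript corrected for its length and for library size. The mean at ZT0 exceeded that at ZT12 by at least 0.8, the mean at ZT20 exceeded that at ZT12 by at least 0.8, and the means at ZT20 and ZT0 lay less than 0.8 apart. Since the stage levels chose these lncRNAs, their levels and their differences between stages are given here as a description. The cells came from 9 Rohman layers 210 days old with no treatment or altered allele given, 3 hens at each of 0, 12 and 20 h of zeitgeber time, which fell in the morning, in the evening and before dawn. All hens laid at a similar hour of the morning, so that the stages follow the ovulatory cycle, with ZT20 at the surge of luteinizing hormone (LH). The hens shared the same daily cycle of light and dark, so stage of the ovulatory cycle and time of day cannot be told apart. Total RNA without ribosomal RNA was sequenced, 1 library per hen.

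LncRNAs are transcripts that carry no long open reading frame, and many are spliced but stay in the nucleus. They are transcribed between protein-coding genes, opposite to them or inside their introns, and some act on the transcription of the gene beside them, while for most no function is known. Granulosa cells surround the oocyte, and those of the F1 follicle of birds make progesterone before the follicle ruptures. None of the 236 lncRNAs had a gene symbol, and no role is given here for any of them. Of the 236, 15 were Ensembl genes and 221 were transcripts assembled in the study, whose names begin with G.

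Most of the 236 lncRNAs were well above the usual lncRNA level. The rule itself favours this, since with the 2 added to each TPM a very low lncRNA cannot change by 0.8. On log2(TPM + 0.1) values 1006 lncRNAs met the rule. The mean TPM of the 236 over the 9 libraries had a median of 10.7 and ran between 1.98 and 512, against a median of 1.08 for all lncRNAs. Mean levels above 10 TPM were found for 129 of them and above 100 TPM for 8. The difference ZT12 minus ZT0 in log2(TPM + 2) had a median of -1.02 and ran between -2.41 and -0.80, against a median of -0.15 over all lncRNAs. The difference ZT20 minus ZT12 had a median of 1.22 (0.80 to 2.77), against 0.10 over all lncRNAs. Between ZT20 and ZT0 the median difference was 0.16 (-0.76 to 0.80), with 169 lncRNAs higher and 67 lower at ZT20.

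The 3 libraries of ZT12 were not equally low. The median TPM of the 236 lncRNAs was 10.3, 11.4 and 16.1 in the ZT0 libraries, 6.84, 6.04 and 2.11 in the ZT12 libraries, and 14.0, 15.4 and 13.1 in the ZT20 libraries. ZT12 replicate 3 thus stood well below the other 2 ZT12 libraries, and no ZT12 median reached those of ZT0 or ZT20. Summed over the 236 lncRNAs, the level was 5226, 6093 and 8049 TPM at ZT0, 3653, 2957 and 1193 TPM at ZT12, and 7236, 7973 and 7672 TPM at ZT20. Their share of all lncRNA TPM was 3.98, 5.22 and 6.51% at ZT0, 2.81, 2.23 and 1.195% at ZT12, and 6.21, 6.69 and 5.78% at ZT20. Of the 236, a value at least 0.8 below the ZT0 mean was found for 81, 134 and 233 in ZT12 replicates 1, 2 and 3.

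**Figure D1:**
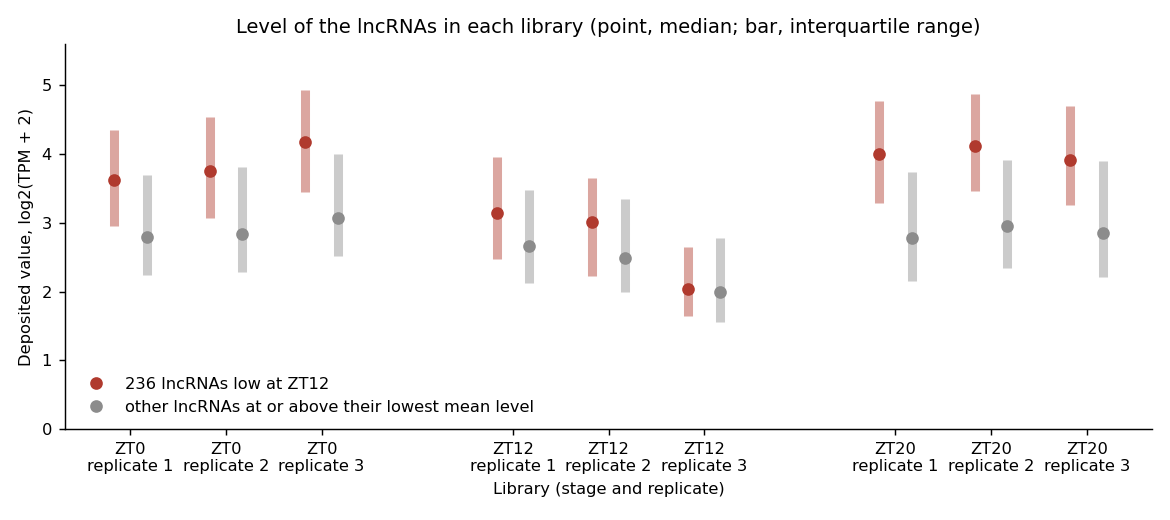
Deposited log2(TPM + 2) values in the 9 libraries, in stage order. Red points give the median of the 236 lncRNAs low at ZT12 and grey points that of the 2613 other lncRNAs at or above their lowest mean level, with bars for the interquartile range. The red medians lie between 3.62 and 4.18 for ZT0, 2.04 and 3.15 for ZT12, and 3.91 and 4.12 for ZT20, and the grey median is also lowest, at 2.001, in ZT12 replicate 3.

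The other lncRNAs at or above 1.98 TPM moved the same way in that library. They were not matched to the 236 in level. Their median deposited values at ZT0 were 2.80, 2.83 and 3.08, against 3.62, 3.75 and 4.18 for the 236. The 2 added to each TPM shrinks differences more at a lower level. Relative to their own ZT0 mean, the median of the 236 lncRNAs was -0.65, -0.86 and -1.63 in ZT12 replicates 1, 2 and 3, and that of the 2613 other lncRNAs at or above 1.98 TPM was -0.26, -0.41 and -0.85. The median ratio of a library to the geometric mean of all 9, taken over lncRNAs detected in every library, was 1.16, 1.197 and 1.48 at ZT0, 0.982, 0.835 and 0.443 at ZT12, and 1.05, 1.28 and 1.14 at ZT20. Over mRNAs the same ratio was 1.12, 1.14 and 1.21 at ZT0, 0.961, 0.940 and 0.835 at ZT12, and 0.966, 1.01 and 0.944 at ZT20, a much narrower range. ZT12 replicate 3 was the lowest of the 9 libraries for 210 of the 236 lncRNAs (89.0%), against 50.1% of the 5459 other lncRNAs with a single lowest library. The study also lists a higher GC content of the reads in every ZT12 library than in any ZT0 library. It was highest of the 9 libraries in ZT12 replicate 3, and ZT20 replicates 1 and 2 were listed below every ZT12 library. The GC content of ZT20 replicate 3, in which these lncRNAs were high, was listed above that of ZT12 replicates 1 and 2. The part of the library ratio and of the GC content in the low ZT12 levels was not tested.

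Every ZT12 library lay below every ZT0 and every ZT20 library for 175 of the 236 lncRNAs, and the same held for 13.8% of all lncRNAs. The ZT12 libraries lay below all ZT0 libraries for 190 (28.2% of all lncRNAs) and below all ZT20 libraries for 200 (33.7% of all lncRNAs). The libraries of ZT12 overlapped those of another stage for 61. A value of 0 in at least 1 ZT12 library was listed for 8 lncRNAs, and in all 3 for 2 of them. In limma fitted on log2(TPM + 1) over all lncRNAs, the 236 had a median log2 fold change of -1.21 for ZT12 against ZT0, against -0.25 over all lncRNAs, and none was called, with adjusted p between 0.0572 and 0.382. The unadjusted p was under 0.05 for 226 of them, as it was, with a lower level at ZT12, for 24% of all lncRNAs. The background of calls in that direction was 0.0674%. Without the mean-variance trend 2 of the 236 were called, beside 12 lower of all 7414 lncRNAs tested. When 1 TPM was required in 3 libraries 4 of the 236 were called, beside 21 lower of 4327. The study's own DESeq2 test, at the same thresholds, called more lncRNAs for ZT12 against ZT0 than limma, most of them lower. How many of the 236 are among them is not given here. For ZT20 against ZT12 the median log2 fold change of the 236 in limma was 1.41, against 0.18 over all lncRNAs. Of the 236, 173 (73.3%) were called higher, with a background of 16%. These counts use the contrasts that chose the lncRNAs and are no evidence for them. Without ZT12 replicate 3, 0 of the 236 were called lower for ZT12 against ZT0 and 103 higher for ZT20 against ZT12. Over all 7414 lncRNAs tested these calls then numbered 2 and 964. After scaling the libraries by their lncRNA median ratio they numbered 0 and 77 among the 236, and 2 and 786 among the 7414.

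G9395 had the highest mean level, with 426, 776 and 601 TPM at ZT0, 316, 262 and 116 TPM at ZT12, and 733, 585 and 790 TPM at ZT20. All 3 ZT12 libraries were below the lowest of the other 6. It lies on chromosome 24 at 3106112 to 3107454 (Ensembl Gallus_gallus v.6.0, as given by the study) and has 2 exons. The study lists GRAMD1B, whose mammalian protein carries cholesterol out of the plasma membrane, and the adhesion gene CLMP among the genes near it, but no mRNA value is paired with either name here.

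The next 3 by level, G18318, G18319 and G18320, carry consecutive numbers and had similar profiles. G18318 had 304, 334 and 494 TPM at ZT0, 240, 156 and 47.8 TPM at ZT12, and 559, 566 and 806 TPM at ZT20. G18320 had 204, 184 and 343 TPM at ZT0, 113, 100 and 20.6 TPM at ZT12, and 314, 381 and 269 TPM at ZT20, so that its stage means were 244 ± 86.5, 77.9 ± 49.97 and 321 ± 56.1 TPM (SD, n = 3 each). In both, the ZT12 libraries stayed below all others. G18319 lay between them in level, with stage means of 289 ± 107, 114 ± 73.9 and 453 ± 60.5 TPM in the same order.

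G7880, an intronic lncRNA of chromosome 2 (115406988 to 115567532), had 184, 169 and 222 TPM at ZT0, 133, 81.5 and 32.5 TPM at ZT12, and 176, 250 and 315 TPM at ZT20. Its highest ZT12 library was below the lowest ZT0 library. G18172 had 206, 210 and 281 TPM at ZT0, 117, 103 and 44.4 TPM at ZT12, and 108, 156 and 187 TPM at ZT20, and its ZT12 and ZT20 libraries overlapped. After quantile normalization its difference ZT20 minus ZT12 turned to -0.15, and after the lncRNA scaling it was 0.16. G12212 averaged 128 ± 41.7, 71.8 ± 35.9 and 143 ± 34.5 TPM at ZT0, ZT12 and ZT20, and G18343 139 ± 35.6, 61.4 ± 23.0 and 138 ± 19.4 TPM (SD, n = 3 each). G12212 overlapped between ZT12 and ZT0, with 95.7 TPM in the highest ZT12 library and 90.4 TPM in the lowest ZT0 library, while G18343 did not overlap.

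**Figure D2:**
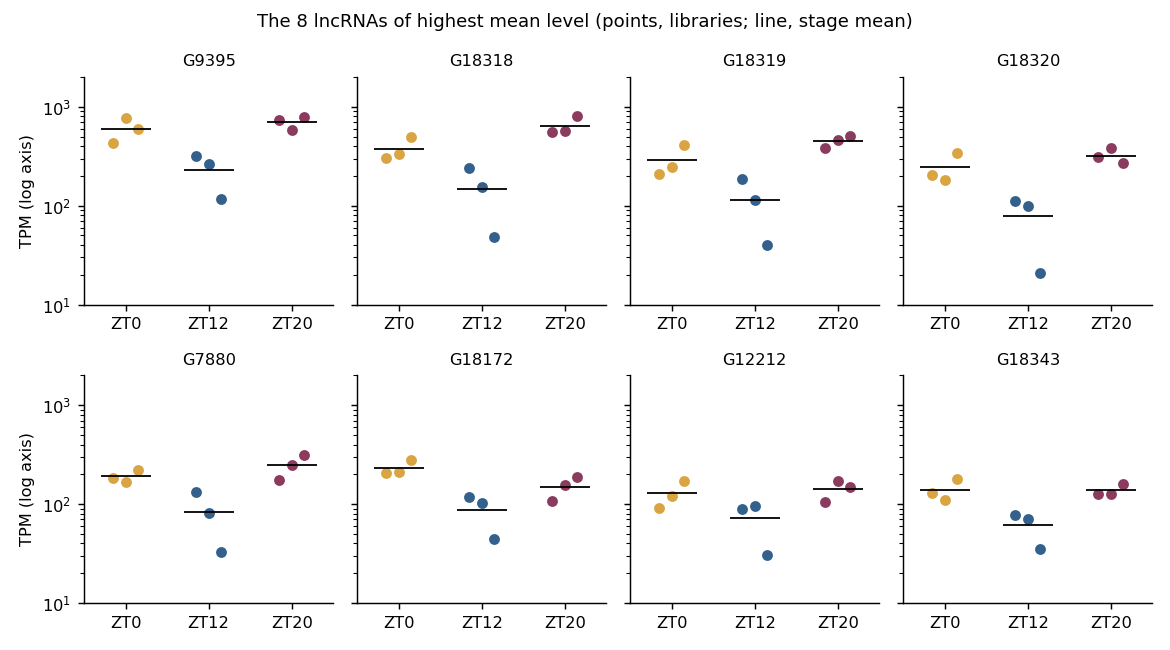
TPM, on a log axis, of the 8 lncRNAs with the highest mean level at ZT0, ZT12 and ZT20; points are libraries and lines stage means. The lowest point of every panel is at ZT12, such as 116 TPM for G9395 and 20.6 TPM for G18320.

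The deepest dip, by the smaller of its differences to ZT0 and ZT20, was that of the Ensembl gene ENSGALG00000054850. It had 10.1, 14.4 and 20.003 TPM at ZT0, 0.669, 3.49 and 0 TPM at ZT12, and 23.1, 23.5 and 7.50 TPM at ZT20. Its ZT12 libraries were all below the others. G1000 had 34.0, 40.4 and 38.7 TPM at ZT0, 9.81, 6.60 and 3.63 TPM at ZT12, and 76.2, 105 and 19.7 TPM at ZT20, and the lowest ZT20 library was still above the highest ZT12 library. G13221 had 38.5, 44.4 and 90.3 TPM at ZT0, 12.01, 21.8 and 9.11 TPM at ZT12, and 48.7, 54.1 and 46.6 TPM at ZT20, again with no overlap. These 3 lncRNAs had a low level in ZT12 replicates 1 and 2 as well as in replicate 3.

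Others among the deepest dips were less even. G8219, an intergenic lncRNA of chromosome 2 (145316885 to 145336245) that the study lists near TRAPPC9, had 59.7, 77.9 and 94.0 TPM at ZT0, 36.4, 29.9 and 7.69 TPM at ZT12, and 101, 150 and 130 TPM at ZT20. Its ZT12 libraries did not overlap the others, although replicate 3 was far lower than replicates 1 and 2. G13873 had 52.9, 80.5 and 0.435 TPM at ZT0, 0.0273, 30.7 and 0.0812 TPM at ZT12, and 69.0, 0.198 and 32.0 TPM at ZT20, so that high and low libraries occurred at every stage. G12460 was listed at 0 in all ZT12 libraries, in ZT0 replicate 3 and in ZT20 replicate 1, and reached 30.8 TPM in ZT20 replicate 2. For G13873 and G12460 the stage means thus rest on few libraries.

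The widest gaps between the highest ZT12 library and the lowest of the other 6 were found for lncRNAs of moderate level. ENSGALG00000048588 had 7.03, 8.09 and 7.09 TPM at ZT0, 1.92, 2.41 and 1.199 TPM at ZT12, and 12.2, 9.83 and 7.77 TPM at ZT20. G15240 had 13.4, 15.3 and 20.4 TPM at ZT0, 4.804, 5.90 and 3.78 TPM at ZT12, and 14.0, 20.9 and 13.8 TPM at ZT20. G7423, intronic on chromosome 2 (75507156 to 75704189), had 15.9, 16.7 and 17.5 TPM at ZT0, 8.14, 8.28 and 4.05 TPM at ZT12, and 28.0, 22.0 and 17.3 TPM at ZT20. In these 3, the highest ZT12 library was well below the lowest library of the other stages. G1000, ENSGALG00000054850 and G7577 completed the 6 widest gaps.

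The levels near the threshold give the scale of the rule. Just inside it were G8108 (ZT20 minus ZT12 of 0.8001), G15234 (ZT12 minus ZT0 of -0.801) and G3851 (-0.802). Just outside were G2327 (ZT12 minus ZT0 of -0.7995), G13165 (ZT20 minus ZT12 of 0.799) and G6536 (ZT12 minus ZT0 of -0.799). G3851 averaged 11.8, 6.45 and 16.0 TPM at ZT0, ZT12 and ZT20, and G2327 averaged 7.48, 3.78 and 11.3 TPM. The lncRNAs on both sides of the limit had much the same profile.

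The number of lncRNAs that meet the rule depended on how the libraries were made comparable. On the deposited values it was 236. After dividing each library by its lncRNA median ratio it was 25, all among the 236, and after quantile normalization 28, of which 23 were among the 236. With libraries divided by the mRNA median ratio, an alternative chosen after seeing the data, it was 100, of which 98 were among the 236. After the lncRNA scaling, all 236 still had a lower mean at ZT12 than at ZT0 and at ZT20, but the median differences were -0.48 for ZT12 minus ZT0 and 0.75 for ZT20 minus ZT12, and the ZT12 libraries lay below all others for 97 of the 236, as they did after this scaling for 4.36% of all lncRNAs. After the mRNA scaling the medians were -0.77 and 1.17. Of the 8 lncRNAs of highest mean level, only G18320 met the rule after the lncRNA scaling. Among the deepest dips and widest gaps named above, G8219, G15240 and G7423 did not meet it.

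Single libraries also decided how many lncRNAs met the rule. Without ZT12 replicate 3 the count was 94, of which 86 were among the 236, and without ZT0 replicate 3 it was 154, of which 145 were. Without ZT12 replicate 1 it was 411, of which 227 were among the 236. With any other library left out the count stayed between 214 and 329. Of the 236, 45 met the rule with each of the 9 libraries left out in turn, and 20 met it both after the lncRNA scaling and without ZT12 replicate 3. Those 20, a set chosen after seeing the values, included G18320, G13221, G1000, G7577, ENSGALG00000054850 and ENSGALG00000048588, and 3 lncRNAs with near numbers, G15781, G15782 and G15784. They also held the uneven G13873, which met the rule in 5 of the 9 leave-outs, and G12460. G15781 had 22.2, 22.6 and 107 TPM at ZT0, 15.7, 19.4 and 4.18 TPM at ZT12, and 55.4, 46.7 and 64.1 TPM at ZT20, so that ZT0 replicate 3 stood apart from its group.

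**Figure D3:**
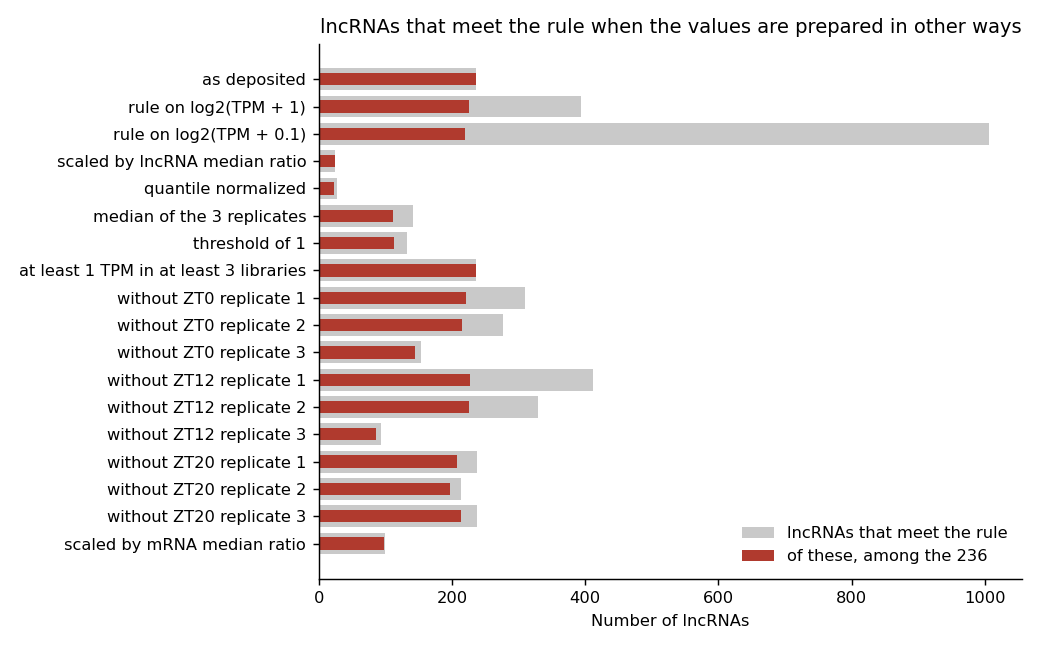
Number of lncRNAs that meet the rule when the values are prepared in other ways (grey bars, count of lncRNAs) and how many of these are among the 236 (red bars). Scaling by the lncRNA median ratio leaves 25, leaving out ZT12 replicate 3 leaves 94, and a pseudocount of 0.1 gives 1006, of which 220 are among the 236.

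Where the lncRNAs came from was not used by the rule. They made up 5.02% of the 4403 assembled lncRNAs and 0.48% of the 3125 Ensembl lncRNAs. Ensembl lncRNAs were mostly low, and among the 2849 lncRNAs at or above 1.98 TPM the shares were 9.29% of 2379 assembled and 3.19% of 470 Ensembl lncRNAs. The 15 Ensembl members had mean levels between 2.80 TPM (ENSGALG00000036107) and 38.9 TPM (ENSGALG00000042588).

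The annotation used here gives a position for 1220 lncRNAs, 73 of them among the 236. It is a cut of a longer list, so the shares below describe those 73 and carry no test. Of the 73, 52 (71.2%) were intronic, against 40.7% of the 1220, and against 52.1% of the 610 other positioned lncRNAs at or above 1.98 TPM. A further 9 (12.3%) were intergenic, and antisense classes held 8 in all. The 8 comprised 3 outside and 2 inside an intron and 1 each inside, outside and overlapping an exon. Of the 73, 50 (68.5%) lay on chromosome 2, against 50.3% of the 610 others. In all, 58 had 2 exons, and the genomic span had a median of 4730 bp, against 2950 bp for the others. At or above 1.98 TPM, 14.1% of 370 intronic lncRNAs were among the 236, against 13.8% of 65 intergenic ones and 1.79% of 56 that overlap an exon on the other strand.

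Intronic lncRNAs outside the 236 were also lower at ZT12. Among 318 other intronic lncRNAs at or above 1.98 TPM, the median of ZT12 minus ZT0 was -0.67 and that of ZT20 minus ZT12 was 0.49. For 55 others that overlap an exon on the opposite strand the medians were -0.27 and 0.08, and for 56 other intergenic lncRNAs -0.45 and 0.09. After scaling by the lncRNA median ratio the medians of the intronic lncRNAs were -0.14 and 0.09, and those of the exon-overlapping antisense lncRNAs turned to 0.32 and -0.49. Reads of an intronic lncRNA and of the unspliced transcript of its host gene were not separated here, and their part in the levels was not tested.

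**Figure D4:**
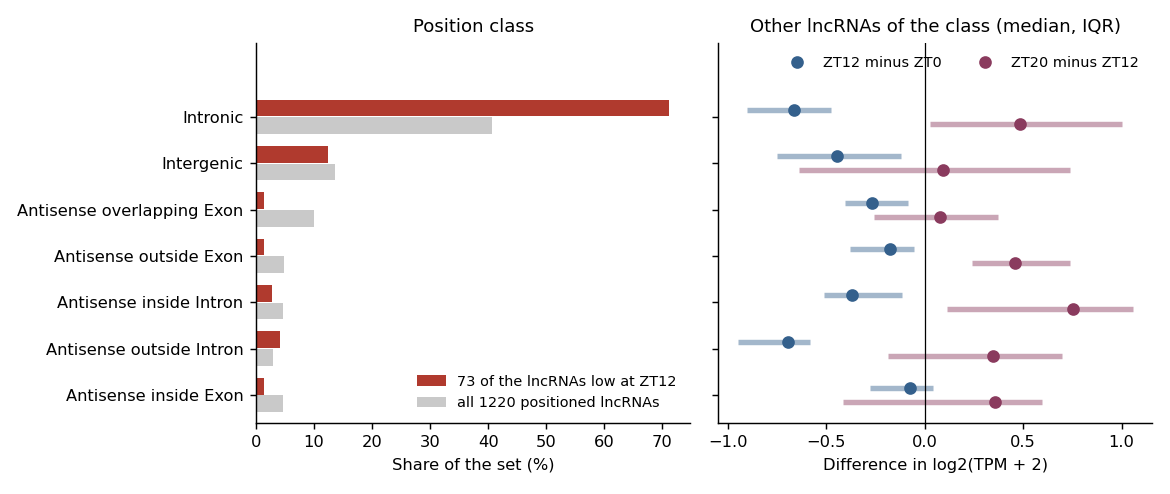
Left, share (%) of 7 position classes among the 73 positioned lncRNAs low at ZT12 (red) and among all 1220 positioned lncRNAs (grey); intronic lncRNAs make up 71.2% and 40.7%. Right, difference in log2(TPM + 2) of the other lncRNAs of each class at or above 1.98 TPM, as median (point) and interquartile range (line), for ZT12 minus ZT0 (blue) and ZT20 minus ZT12 (purple); the intronic medians are -0.67 and 0.49.

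Positioned lncRNAs of the list lay close together whether or not they were low at ZT12. Another positioned lncRNA was found within 100 kb for 66 of the 73 (90.4%) and for 512 of the 610 others at or above 1.98 TPM (83.9%). Chained over distances of up to 100 kb, 44 of the 73 fell into 16 groups of 2 to 5. The largest held G7575, G7578, G7576, G7577 and G7579 on chromosome 2 (90722675 to 91061520), near the zinc finger genes ZNF236 and ZNF516 in the study's list. G7579 had 55.7, 52.4 and 70.6 TPM at ZT0, 41.1, 22.1 and 11.4 TPM at ZT12, and 106, 109 and 87.3 TPM at ZT20. G7577 had 31.3, 29.2 and 37.8 TPM at ZT0, 14.3, 10.4 and 2.77 TPM at ZT12, and 36.8, 46.8 and 27.3 TPM at ZT20. In both, the ZT12 libraries were below all others. G7578 spans G7576 and G7577 and overlaps the start of G7579, so the 5 are not independent measurements. Of the 7 positioned lncRNAs in this stretch, 6 were at least 0.8 lower at ZT12 than at ZT0, and the smallest change of the 7 was -0.56.

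Another group on chromosome 2 (51885657 to 52106777) held G7141, G7143 and G7145, the last listed near EGFR, the receptor of epidermal growth factor. G7143 had 29.4, 49.6 and 64.1 TPM at ZT0, 34.1, 25.1 and 17.1 TPM at ZT12, and 37.3, 53.7 and 54.0 TPM at ZT20, with overlap between ZT12 and ZT0. G7145 had 8.35, 21.0 and 25.3 TPM at ZT0, 13.0, 2.82 and 5.00 TPM at ZT12, and 8.59, 19.5 and 27.3 TPM at ZT20, and overlapped with both other stages. The other 3 positioned lncRNAs of this stretch did not reach a change of 0.8, and the smallest change among the 6 was -0.19. A further group (chromosome 2, 75495720 to 75704189) held G7422, G7423 and G7424. The study lists BASP1 near G7422, and ZNF622 and MARCHF11 near G7423. All 5 positioned lncRNAs of this stretch changed by -1.004 or more strongly. In both groups the chosen lncRNAs were at least 0.8 lower by the rule, so only the lncRNAs beside them were free to differ. Those were G7142, G7144 and G7146 in the group of G7141, and G7425 and G7426 in the group of G7422. G7143 lies within G7141, G7145 overlaps both, and G7424 lies within G7423, so these too are not independent measurements. The change between ZT0 and ZT12 is also one that the rule used.

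The mRNAs near the lncRNAs were not used by the rule. Positions of both could be had for 9 of the lncRNAs, with 29 mRNAs within 100 kb. For ZT12 against ZT0 their limma log2 fold changes, on log2(TPM + 1), had a median of -0.29, against -0.28 over all mRNAs tested. In limma none of the 29 was called lower, with a background of 3.32%, and 2 were called higher, with a background of 0.537%. Both of these, SERPINF2 and SERPINF1, lie beside the same lncRNA, G6198, so they are not separate cases. At an unadjusted p under 0.05, 11 of the 29 were lower, with a background of 33.6%. For ZT20 against ZT12 the median was 0.13, against 0.08 over all mRNAs. Among the 29, 6 were called higher, with a background of 16%, and 2 lower, with a background of 11.7%. Of those called higher, SLC43A2, RILP and SERPINF1 all lie near G6198. After scaling the libraries by their mRNA median ratio the medians over all mRNAs were -0.02 and 0.01, and those of the 29 were 0.02 and 0.03.

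Of these 9 lncRNAs, 4 lay inside an mRNA gene of the table. G6198 (chromosome 19, 5398032 to 5399677) lies in SERPINF2, which encodes the plasmin inhibitor alpha-2-antiplasmin. G6198 had 5.39, 6.04 and 9.93 TPM at ZT0, 4.87, 4.35 and 0.98 TPM at ZT12, and 10.1, 12.01 and 11.1 TPM at ZT20. SERPINF2 had 4.39, 2.32 and 2.97 TPM at ZT0, 9.97, 8.85 and 4.69 TPM at ZT12, and 7.66, 6.02 and 7.85 TPM at ZT20. The mRNA was thus lowest at ZT0, and the lncRNA at ZT12. SERPINF2 was called higher at ZT12 than at ZT0 (log2 fold change 1.04, SE 0.27, limma adjusted p = 0.0332), a call lost with a pseudocount of 2 (0.89) and without ZT0 replicate 2 (0.88), ZT0 replicate 3 (1.01, limma adjusted p = 0.0986), ZT12 replicate 1 (0.86) or ZT12 replicate 2 (0.93). Its neighbour SERPINF1, which encodes the antiangiogenic factor PEDF and lies 7252 bp from G6198, had 15.3, 15.3 and 11.5 TPM at ZT0, 55.7, 54.7 and 36.5 TPM at ZT12, and 113, 131 and 161 TPM at ZT20. It was called higher at ZT12 than at ZT0 (log2 fold change 1.72, SE 0.20, limma adjusted p = 0.00434) and higher at ZT20 than at ZT12 (1.46, SE 0.20, limma adjusted p = 0.000164).

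G6142 (chromosome 19, 4166508 to 4167219) lies in DTX2, a Deltex ubiquitin ligase of the Notch pathway. G6142 had 8.39, 13.2 and 28.9 TPM at ZT0, 11.1, 4.10 and 2.44 TPM at ZT12, and 17.4, 24.6 and 15.5 TPM at ZT20. DTX2 had 11.3, 10.5 and 12.05 TPM at ZT0, 9.46, 9.44 and 8.83 TPM at ZT12, and 13.6, 13.6 and 13.1 TPM at ZT20, so the mRNA was lowest at ZT12 too but by far less. Its log2 fold changes were -0.26 for ZT12 against ZT0 (limma adjusted p = 0.175) and 0.50 for ZT20 against ZT12 (limma adjusted p = 0.00922). Neither passed the fold threshold, so neither was called. G5671 (chromosome 17, 9487880 to 9489408) and G5672 (9490182 to 9492668) lie in CRB2, a Crumbs protein of epithelial polarity. G5671 had 9.60, 9.48 and 12.7 TPM at ZT0, 6.96, 6.08 and 2.30 TPM at ZT12, and 9.12, 9.13 and 12.9 TPM at ZT20. CRB2 stayed between 0.603 and 0.986 TPM in all 9 libraries, below both lncRNAs in each of them. Its log2 fold changes were -0.18 for ZT12 against ZT0 and 0.16 for ZT20 against ZT12, neither called.

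**Figure D5:**
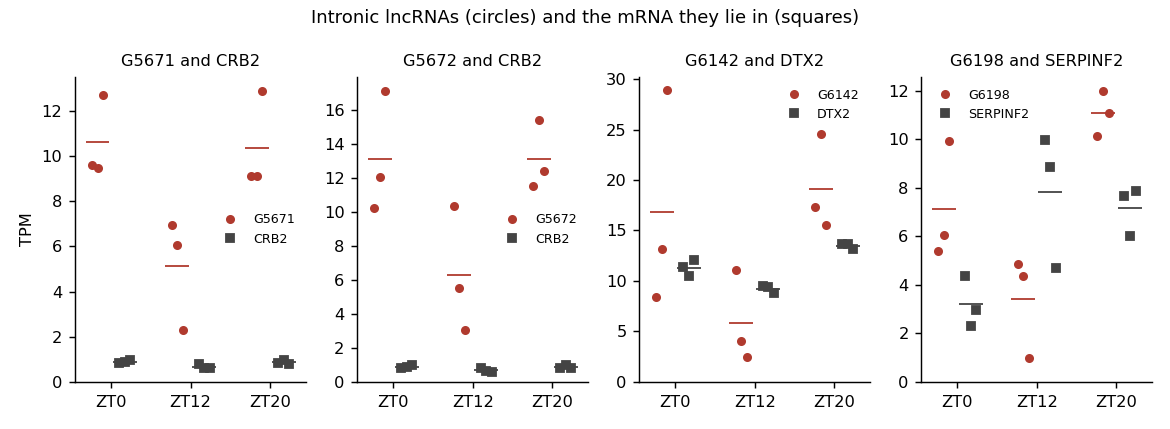
TPM of 4 intronic lncRNAs (red circles) and of the mRNA they lie in (dark squares) in the 3 libraries of each stage, with lines at the stage means and an axis from 0 in each panel. SERPINF2 averages 3.22 TPM at ZT0 and 7.84 TPM at ZT12, while CRB2 stays under 1 TPM in every library.

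Further neighbours were called between ZT20 and ZT12 only, a difference between the contrasts that was not tested. RABGAP1, a GTPase-activating protein, 51310 bp from G5670, had 69.6, 80.2 and 90.9 TPM at ZT20, against 31.2, 32.1 and 22.9 TPM at ZT12 (log2 fold change 1.46, SE 0.16). The amino acid transporter SLC43A2 averaged 20.8 ± 7.21 TPM at ZT20, against 2.38 ± 0.58 TPM at ZT12, and the lysosomal adaptor RILP 13.4 ± 2.52 TPM, against 3.32 ± 0.46 TPM (SD, n = 3 each); both lie near G6198. NOTUM, which inactivates Wnt proteins, was low throughout and averaged 1.65 TPM at ZT20, against 0.196 TPM at ZT12, and ENSGALG00000005242, near G6484, averaged 15.2 TPM, against 2.29 TPM. The call of NOTUM was lost with a pseudocount of 2, at a log2 fold change of 0.72, and without ZT20 replicate 1, at 0.998. A pair of neighbours was lower at ZT20, unlike the lncRNAs beside them. TOX2, a transcription factor 85013 bp from G8352, averaged 0.291 TPM at ZT20, against 2.99 TPM at ZT12, and DAB2IP, a Ras GTPase-activating protein near G5657, 1.27 TPM, against 6.35 TPM.

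Among mRNAs with a symbol and a mean of at least 5 TPM, the 5 most like the mean profile of the 236 lncRNAs over the 9 libraries were AP1G1 (Pearson r = 0.98), UPF1 (0.97), PIP4K2B (0.97), WDR45B (0.97) and TCF12 (0.97). The r is a description over 9 libraries that share the library ratios given above. UPF1, the helicase of nonsense-mediated mRNA decay, had 36.3, 34.9 and 40.5 TPM at ZT0, 23.7, 22.4 and 19.1 TPM at ZT12, and 38.6, 41.1 and 39.8 TPM at ZT20. Its ZT12 libraries lay below all others, and its log2 fold changes were -0.75 for ZT12 against ZT0 and 0.85 for ZT20 against ZT12. AP1G1, a subunit of the clathrin adaptor AP-1, averaged 71.0 ± 7.82, 52.2 ± 5.61 and 73.2 ± 0.621 TPM at ZT0, ZT12 and ZT20 (SD, n = 3 each). The transcription factor TCF12 averaged 130 ± 11.9, 94.7 ± 8.61 and 131 ± 2.15 TPM. None of the 5 passed the fold threshold in either comparison, and they ranked 15 to 38 among the 8579 mRNAs of that level, of which 1406 had a symbol.

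Few genes of the lists could be paired with a symbol, between 0 and 28.6% of a list. Of 22 circadian clock genes, 4 were paired. HLF, a PAR bZIP factor driven by the clock, had 11.4, 17.1 and 31.0 TPM at ZT0, 7.53, 6.25 and 6.14 TPM at ZT12, and 46.0, 45.4 and 37.0 TPM at ZT20. All its ZT12 libraries were below the others. It was lower at ZT12 than at ZT0 (log2 fold change -1.34, SE 0.29, limma adjusted p = 0.0206) and higher at ZT20 than at ZT12 (2.52, SE 0.29, limma adjusted p = 4.35e-05). The first call was lost after the mRNA scaling (-1.02) and without ZT0 replicate 2 (-1.39), ZT0 replicate 3 (-0.97), ZT12 replicate 2 (-1.30) or ZT12 replicate 3 (-1.29). CSNK1D, the kinase that marks PER proteins for turnover, had 66.3, 64.5 and 63.0 TPM at ZT0, 41.0, 37.8 and 33.9 TPM at ZT12, and 60.5, 58.6 and 57.0 TPM at ZT20, and its log2 fold changes of -0.77 and 0.63 did not pass the fold threshold. RORA, a nuclear receptor that activates clock genes, was called lower at ZT20 than at ZT12 (-1.98, SE 0.25, limma adjusted p = 9.58e-05), and PER3, a clock repressor, was called in neither comparison.

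Of 26 genes for nuclear RNA decay and retention, 6 were paired and none passed the fold threshold of the limma call in either comparison, while the unadjusted p was under 0.05 for 3 of them for ZT12 against ZT0 (36.5% of all mRNAs) and for 4 for ZT20 against ZT12 (58.6% of all mRNAs). EXOSC10, a nuclease of the nuclear exosome, had 21.5, 21.2 and 23.0 TPM at ZT0, 18.4, 19.1 and 14.96 TPM at ZT12, and 31.3, 37.2 and 34.8 TPM at ZT20. SFPQ, a paraspeckle protein, had 55.8, 55.4 and 58.0 TPM at ZT0, 35.1, 32.8 and 22.8 TPM at ZT12, and 32.3, 35.6 and 29.7 TPM at ZT20, and so lacked the return at ZT20. EXOSC3, ZCCHC8, NCBP1 and MATR3 had log2 fold changes between -0.50 and 0.01 for ZT12 against ZT0 and between -0.51 and 0.71 for ZT20 against ZT12. Of 16 genes of transcription by RNA polymerase II, 4 were paired and none passed the fold threshold of the limma call in either comparison. The unadjusted p was under 0.05 for 4 for ZT12 against ZT0 and for 2 for ZT20 against ZT12, beside the same shares of all mRNAs, 36.5% and 58.6%. The limma adjusted p was under 0.05 for INTS1 (0.0249) and INTS11 (0.0379) for ZT12 against ZT0, and for MED1 (0.00052) for ZT20 against ZT12. The 4 paired genes, SUPT6H, INTS1, INTS11 and MED1, had log2 fold changes between -0.73 and -0.40 for ZT12 against ZT0, against a median of -0.28 over all mRNAs. For ZT20 against ZT12 they had 0.05, 0.30, -0.44 and 0.94 in that order, so INTS11 was lower again at ZT20.

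The labelled cell type was checked on the few marker genes that could be paired. Of 17 genes of the LH response, STAR and NR5A1 were paired, and they are also the 2 paired genes among 11 granulosa markers. STAR, which brings cholesterol into mitochondria for steroid synthesis, was called higher at ZT20 than at ZT12 (10507 to 16462 TPM, against 1403 to 1736 TPM), and NR5A1, a transcription factor of steroidogenic cells, lower (31.6 to 52.5 TPM, against 158 to 216 TPM). ZP3, an egg coat protein that granulosa cells of birds make, stood at 84106 to 114848 TPM and was the 1 paired gene of 4 germ cell markers. The endothelial marker CLDN5, 1 paired of 7, was lower at each later stage, with 42.3, 24.5 and 74.5 TPM at ZT0, 14.2, 14.6 and 19.3 TPM at ZT12, and 4.16, 5.02 and 5.15 TPM at ZT20. Its call for ZT12 against ZT0 (log2 fold change -1.37) was lost after the mRNA scaling (-1.04) and without ZT0 replicate 3 (-0.98) or ZT12 replicate 1 (-1.30), 2 (-1.31) or 3 (-1.50). Of 7 leukocyte and thrombocyte markers 2 were paired. PTPRC averaged 0.474, 0.299 and 0.676 TPM at ZT0, ZT12 and ZT20, with overlap between ZT12 and ZT0, and CD74 was lower at ZT20 than at ZT12 (log2 fold change -1.24), a call lost without any of ZT12 replicate 1 (-0.68), ZT12 replicate 2 (-1.38), ZT20 replicate 1 (-1.37), ZT20 replicate 2 (-1.36) or ZT20 replicate 3 (-0.99). No gene of the theca, fibroblast and erythroid lists was paired. Of the paired markers of other cell types PTPRC alone had its lowest stage mean at ZT12, and the part of cell composition in the lncRNA levels was not tested. In bulk samples fewer cells of a type and less RNA per cell cannot be told apart.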

How the data were processed

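RNA of F1 granulosa cells from 9 hens was analysed from the deposited values, with stage and replicate taken from the labels; all columns were used. No label names a batch. The authors aligned reads with STAR 2.6.0c to Ensembl Gallus_gallus v.6.0, assembled transcripts, kept those without coding potential and used Kallisto to obtain TPM. The deposited log2 values have a floor read here as log2(TPM + 2) for lncRNAs and log2(TPM + 1) for mRNAs, and TPM was recovered from these. TPM holds no depth, so the depth behind a value is unknown and no counting interval is given.

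The rule was applied to the deposited log2 values. Transcripts above 0.1 TPM in at least 1 library (7414 lncRNAs and 12472 mRNAs) were fitted on log2(TPM + 1) with limma 3.58.1 in R 4.3.3, with stage means and a trend over 6 residual degrees of freedom, lncRNAs and mRNAs apart, and called at an absolute log2 fold change above 1 and a Benjamini-Hochberg adjusted p under 0.05. The fit and the rule were tested on simulated data. The design had assumed TPM tables. Python 3.11.15, numpy 2.4.6, pandas 2.3.3 and matplotlib 3.10.9 were used for the rest.

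The rule, the lncRNAs and the gene lists were chosen with earlier results of these data known. Named were the 8 lncRNAs of highest mean TPM, the 8 deepest dips, the 6 widest gaps and the 3 nearest to the threshold on each side. Also named were the 5 most alike mRNAs and the called or core genes of the lists. No lncRNA named by level, dip, gap or threshold had a positioned mRNA with a symbol within 100 kb. Lists covered the circadian clock, nuclear RNA decay, RNA polymerase II, the LH response and 7 cell types. Grouped lncRNAs, host genes and called neighbours were named after their values were seen. Positions, classes and symbols come from the study's annotation, of which a part was used. Alternatives changed the pseudocount, low-value filter, scaling, trend, replicate block, threshold, summary, distance and the libraries entered.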

Additional observations from a re-analysis of the deposited data

How the results depend on the processing

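Among the comparisons across all transcripts, the 6 lncRNAs called for ZT12 against ZT0 became 2 without a filter on low values, 23 when 1 TPM was required in 3 libraries, 14 without the trend, and 2 to 6 with a library left out. At an unadjusted p under 0.05 there were 1874. For ZT20 against ZT12, 1541 lncRNAs were called, 2474 with a pseudocount of 0.1 and 1308 to 1628 with a library left out; after the lncRNA scaling 786 were higher and 642 lower, against 1185 and 356 on the deposited values. The 481 mRNAs called for ZT12 against ZT0 became 785 with a pseudocount of 0.1 and 203 after scaling (101 higher and 102 lower, against 67 and 414), and 196 to 699 with a library left out: 196 without ZT0 replicate 3, 222 without ZT12 replicate 2 and 282 without ZT12 replicate 3. The 3465 mRNAs called for ZT20 against ZT12 stayed between 2950 and 4454 under all alternatives.

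The rule gave 394 lncRNAs on log2(TPM + 1) and 1006 on log2(TPM + 0.1), 25 after the lncRNA scaling, 28 after quantile normalization, 141 with the median of 3 libraries in place of the mean, 133 at a threshold of 1, 100 after the mRNA scaling, and 94 to 411 with a library left out. The median log2 fold change of the neighbouring mRNAs was 0.0224 after scaling, -0.0608 within 10 kb and -0.33 to -0.26 with a library left out for ZT12 against ZT0, and 0.26 within 10 kb and 0.00628 to 0.19 with a library left out for ZT20 against ZT12, where 0.00628 was without ZT12 replicate 3.

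Replicate numbers did not pair the libraries: same-numbered libraries of different stages had correlations of their deviations from the stage means between -0.19 and 0.08. With a replicate block, 4 and 1488 lncRNAs and 388 and 3466 mRNAs were called for ZT12 against ZT0 and for ZT20 against ZT12. For 46 named lncRNAs, 1380 alternative differences were computed over other pseudocounts, scalings, the median and left-out libraries. Of these, 142 moved by more than the spread between replicates, 51 of them under the lncRNA scaling and 57 under quantile normalization, and 1 reversed, G18172 for ZT20 minus ZT12 at -0.15 after quantile normalization. Under the lncRNA scaling G12212 for ZT12 minus ZT0 was -0.12, against -0.92 as deposited. Over all alternatives of the mRNA fit, 22 of 288 alternative calls of named mRNAs were lost, in HLF, CLDN5, SERPINF2, CD74 and NOTUM. The causes of these changes were not tested.

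Depth was unknown, positions covered 73 of the 236 lncRNAs, and each stage had 3 hens.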
